A study of Canis lupus familiaris with 186 samples.

Results

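Messenger RNA of 7 cytotoxic granule genes, GZMA, GZMB, GZMK, PRF1, NKG7, CTSW and KLRK1, was examined in primary osteosarcomas of 186 pet dogs. The genes were taken by name from the deposited table of gene counts, where 7 of 37952 rows carry these symbols. The dogs were privately owned, had appendicular osteosarcoma without visible metastasis, and were enrolled in the trials COTC021 (93 dogs) and COTC022 (93 dogs). All tumors were sampled before treatment. The trials compared carboplatin alone with carboplatin plus rapamycin after amputation, but the labels do not say which arm carries which trial name. The trial is therefore used here as a label of enrolment and not as a treatment. The study's code took the trials as batches and adjusted for them. No dog without a tumor and no normal bone was among the libraries used here, so no value below is relative to normal tissue.

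Cytotoxic T cells and natural killer (NK) cells kill by releasing granules at the contact with a target cell. Perforin, encoded by PRF1, forms pores in the target membrane, and granzymes (GZMA, GZMB and GZMK) are serine proteases that enter through them. Granzyme B is known for cutting caspases and thereby starting apoptosis, whereas granzymes A and K have other substrates, and GZMK marks T cells that are often described as less strongly cytolytic. NKG7 encodes a membrane protein of the granule, CTSW a papain-like cysteine protease of cytotoxic lymphocytes, and KLRK1 the activating receptor NKG2D, which recognizes stress ligands. The genes are textbook markers of cytotoxic lymphocytes in tumors, in which such cells are one part of the infiltrate beside macrophages. In bulk tumor RNA, fewer cells of a type and less RNA per cell cannot be told apart.

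On the canine build UU_Cfam_GSD_1.0, the build named for the counts, RefSeq lists each of the 7 genes as protein coding. NKG7 lies at chr1:106225044-106226395, GZMA at chr2:41653466-41660635, and PRF1 at chr4:22227730-22230277. GZMK lies on the chromosome of PRF1, at chr4:61472808-61482765. GZMB lies at chr8:4634356-4637481, CTSW at chr18:51883832-51888169 and KLRK1 at chr27:10500576-10524567. The 7 genes thus lie on 6 chromosomes.

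Library totals ranged from 6587631 to 27420857 counts, with a median of 10797162. The names of 50 deposited columns carry the sign __ and are called __ libraries here. They were deeper (median 19440450 counts) than the other 136 (median 9851681 counts). COTC021 holds 18 __ libraries and 75 others, and COTC022 holds 32 and 61. The sources used here do not say what the name form marks, so each result is also given within each form where it matters. Of 5 osteoblast markers fixed as a list (RUNX2, SP7, ALPL, BGLAP and IBSP), 5 passed the low-count filter, as did 10 of 10 macrophage markers, but only 6 of 10 T cell markers, 3 of 12 measured NK receptor genes and 1 of 8 B and plasma cell markers.

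The granule genes were scarce in the typical tumor and abundant in a few. Values are counts over the library total, in the usual unit CPM, and because transcript length is not corrected for, levels are compared between dogs and not between genes. A count of 0 allows up to 3 counts, which is 0.278 CPM at the median depth and 0.455 CPM in the shallowest library. Among the granzymes, GZMA ranged from 0 to 166.5 CPM across the 186 dogs with a median of 0.426 CPM, GZMB from 0 to 83.6 CPM with a median of 1.19 CPM, and GZMK from 0 to 2271 CPM with a median of 2.14 CPM. At least 10 counts were found for GZMA in 63 dogs, for GZMB in 117 and for GZMK in 140, and a count of 0 in 23, 7 and 4 dogs, respectively. The pore-forming PRF1 had a median of 0.321 CPM (highest 72.6 CPM), with at least 10 counts in 53 dogs and 0 in 34. The granule membrane gene NKG7 had a median of 0.799 CPM (highest 211.2 CPM), with at least 10 counts in 90 dogs. CTSW had a median of 0.775 CPM (highest 84.8 CPM) and reached 10 counts in 89 dogs. The receptor gene KLRK1 was the least often detected, with a median of 0.106 CPM (highest 53.97 CPM), at least 10 counts in 20 dogs and 0 in 71. In 26 dogs none of the 7 genes reached 10 counts, in 18 dogs all 7 did, and in 1 dog all 7 were at 0.

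**Figure D1:**
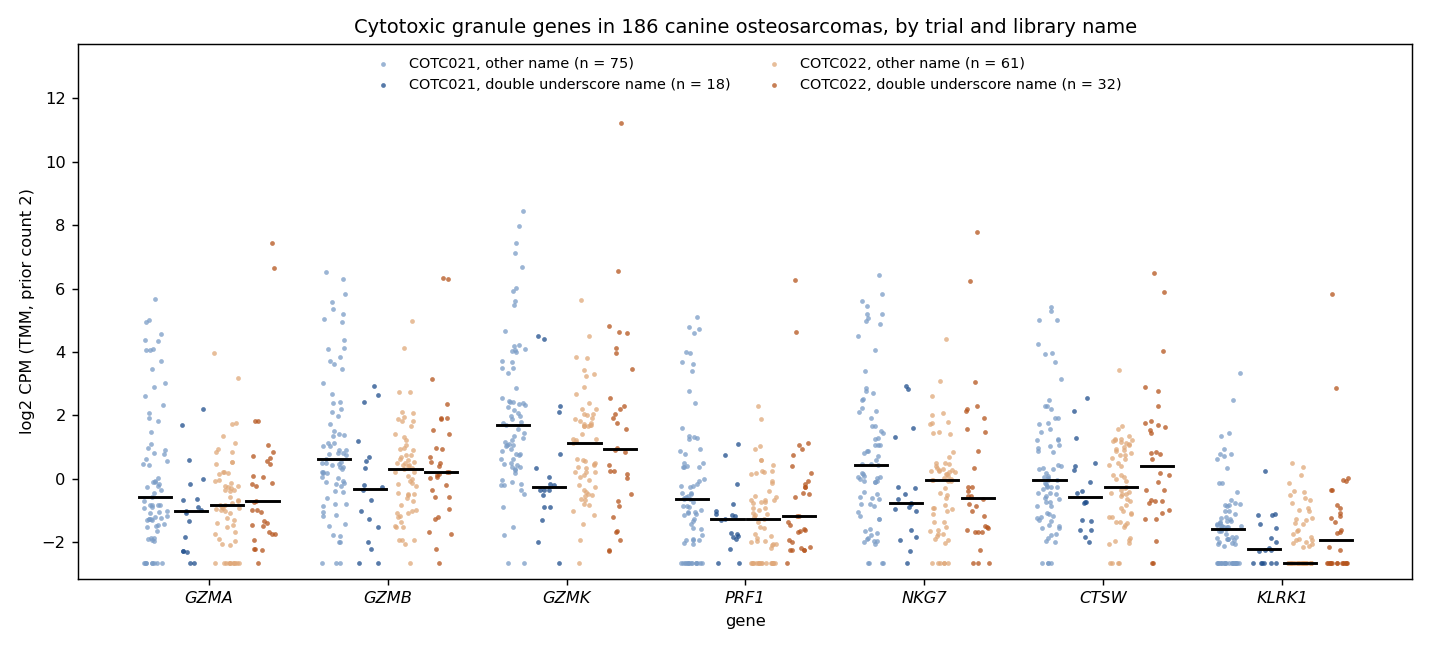
Log2 CPM (TMM-normalized, prior count 2; vertical axis) of the 7 genes (horizontal axis) in each of 186 dogs, coloured by trial and by the form of the library name, with black bars at group medians. In each gene most dogs lie near the bottom and a thin upper tail reaches several log2 units higher, with the COTC022 __ group holding the top dog of 6 genes.

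On the log2 CPM scale the SD across dogs was 2.27 for GZMK, 2.11 for NKG7, 1.98 for GZMA, 1.98 for GZMB, 1.81 for PRF1, 1.79 for CTSW and 1.27 for KLRK1, against a median SD of 0.616 over the 13422 genes left after filtering on low counts. These SDs lie at the 86.4th percentile of those genes for KLRK1 and at the 98.4th for GZMK. The SD of low-count genes includes counting error, which is not separated here.

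A small set of dogs carried most of the signal. The 10 highest dogs held 57.8% of the summed CPM of GZMB and 80.9% of that of GZMK, and the values of the other 5 genes lay between these. They were largely shared between genes, since 6 dogs were in the top 10 of all 7 genes and 15 dogs accounted for every top-10 place. One tumor stood apart. COTC022 replicate 64, a __ library, was highest for 6 of the 7 genes and second for GZMB (76.4 CPM), behind COTC021 replicate 12 (83.6 CPM). It held 52.6% of the summed GZMK of all dogs, 45.3% of KLRK1, 24.7% of GZMA, 21.5% of NKG7, 19.4% of PRF1 and 14.4% of CTSW. Without it, the mean of GZMK was 11.06 ± 34.7 CPM (SD, n = 185), against 23.2 ± 169.2 CPM (SD, n = 186) with it.

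The same tumor was first of 186 for the T cell receptor component CD3E (880.4 CPM, median of all dogs 2.9 CPM), for CD8A (169.6 CPM), CD8B (179.6 CPM) and CD4 (326.8 CPM), for the death ligand gene FASLG (81.9 CPM), for GNLY, which encodes granulysin (65.2 CPM), and for the transcription factor genes TBX21 (37.3 CPM) and EOMES (71.9 CPM). It ranked second on the macrophage score and last of 186 on the osteoblast score. Of the B lymphocyte markers it had rank 3 for MS4A1, rank 4 for CD79A and rank 5 for CD79B. Values without this tumor are given beside many results, but not for every subset of dogs. It is a labelled sample of its trial, and the part of tissue composition in its values was not tested.

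The 7 genes rose and fell together across dogs. Over the 21 pairs, Pearson's r of log2 CPM ranged from 0.736 for CTSW and KLRK1 to 0.881 for GZMK and NKG7, with a median of 0.811, and Spearman's rho ranged from 0.583 to 0.816. All 21 pairs had a two-sided permutation p of 1e-05 for both measures, also after Benjamini-Hochberg adjustment over the 21 pairs, which is the smallest value that 100000 resamples can give. Leaving out the 2 dogs farthest from the median of the first gene of each pair left r between 0.695 and 0.865. The median r of the pairs was 0.832 within COTC021 and 0.779 within COTC022 (0.716 without COTC022 replicate 64). It was 0.871 within the __ libraries (0.817 without that dog) and 0.80 within the others. Over all dogs but that one it was 0.793, and the range was 0.716 to 0.871.

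Asked which genes of a limited pool were most alike in pattern, the data returned mostly other members and T cell genes. For each member, the 5 genes with the highest r were taken from 12271 genes with a symbol, which are those left by the filter and the other members. Members were in the pool whether or not they passed the filter. Other low-count genes, such as CD8A, FASLG and most NK receptor genes, were left out and could not be returned. The nearest genes are descriptions over the same 186 libraries and carry no test. CD3E, a signalling chain of the T cell receptor complex, was among the 5 nearest of all 7 members, with r of 0.913 for GZMK, 0.887 for NKG7, 0.858 for PRF1, 0.853 for GZMB, 0.833 for GZMA, 0.808 for CTSW and 0.808 for KLRK1. NKG7 was among the 5 nearest of each of the other 6 members. The remaining places went to the chemokine gene CCL5 (r = 0.860 with GZMA), the chemokine receptor gene CXCR6 (0.879 with GZMK), IL2RB, a receptor chain shared by interleukins 2 and 15 (0.818 with CTSW), GIMAP7, a lymphocyte GTPase gene (0.878 with GZMK), CLEC2D (0.871 with GZMK), CD6 (0.792 with CTSW) and CD226, an activating receptor of T and NK cells (0.788 with KLRK1). GZMB, GZMK, CD3E, CXCR6, IL2RB, GIMAP7, CLEC2D and CD6 are all in a signature that the study derived from these same tumors. Their nearness here is not separate from it. The rank of a low-count member as a partner is limited by its counting error.

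Scores over fixed marker lists were then compared with each member. A score is the mean z-score of log2 CPM over the genes of the list that passed the filter, scaled to an SD of 1, and 12 lists with at least 3 such genes gave 84 relations with the 7 members. The T cell score had the highest r with each member, from 0.838 for KLRK1 to 0.900 for NKG7 (adjusted permutation p at most 1.83e-05). Of its genes, CD3E, CD2 and CD6 stand with GZMB and GZMK in a signature that the study derived from these same tumors. For GZMB and GZMK this relation is thus not separate from that signature. The interferon-gamma response list had r between 0.672 and 0.771, the GS-1 signature described below between 0.659 and 0.813, and the granule pathway list, which holds no member, between 0.587 and 0.726. The macrophage score had r between 0.503 for PRF1 and 0.672 for GZMK, and the NK receptor score between 0.420 and 0.545. The latter averages 3 genes that ran different ways with the members, CD226 with r between 0.685 and 0.809, TYROBP between 0.271 and 0.449, and NCAM1 between -0.420 and -0.307. The neutrophil score had r between 0.182 and 0.326. The osteoblast score ran the other way, with r between -0.417 for GZMK and -0.279 for GZMA. These 8 lists passed the adjusted threshold with 7 of 7 members by r. By rho, KLRK1 did not pass with the neutrophil score (rho = 0.128, adjusted permutation p = 0.106). Osteoclast and skeletal muscle scores passed with none of the 7 members, with r between -0.120 and 0.130, and the endothelial score passed with GZMK (r = 0.179, adjusted p = 0.0212 by permutation), where r was 0.487 within the __ libraries and 0.036 within the others, and 0.047 within COTC021 and 0.332 within COTC022. By rho, GZMB passed with the endothelial score too (rho = 0.179, adjusted permutation p = 0.0222). The proliferation score passed with GZMK (r = -0.252) and KLRK1 (r = -0.229). Within the __ libraries these were -0.465 and -0.489 (-0.310 and -0.305 without COTC022 replicate 64), within the others -0.157 and -0.111, and within COTC021 -0.139 and -0.131. GZMA had r of -0.347 within the __ libraries (-0.148 without that dog) and 0.132 within the others. In all, 59 of 84 relations passed by r.

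Without the 2 dogs farthest from the median of each score, r with the T cell score was 0.796 to 0.888, and r with the osteoblast score was -0.330 to -0.184. Some relations differed in size by name form. The osteoblast score had r between -0.648 and -0.507 within the __ libraries (between -0.481 and -0.264 without COTC022 replicate 64) and between -0.347 and -0.198 within the others. A score shares its libraries, depth and tissue composition with the member it is compared to.

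**Figure D2:**
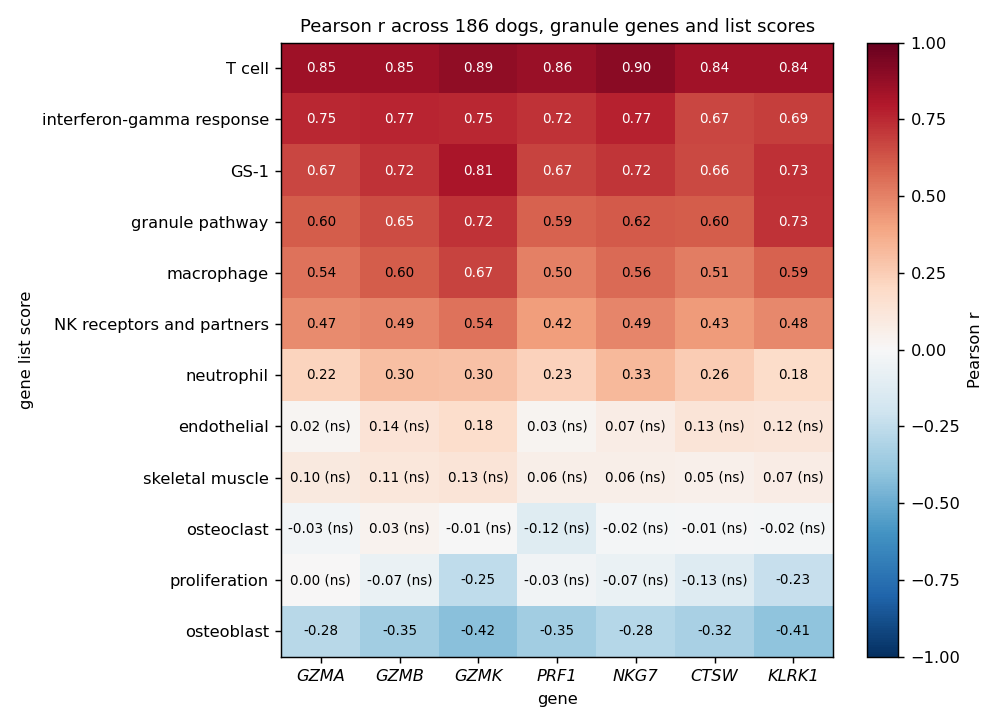
Pearson's r across 186 dogs between log2 CPM of the 7 genes (columns) and the scores of 12 gene lists (rows, ordered by mean r), coloured from -1 to 1, with (ns) where the adjusted permutation p is 0.05 or more. The T cell row is highest for each gene (0.84 to 0.90) and the osteoblast row is the lowest (-0.42 to -0.28).

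GS-1 is a signature of immune genes from earlier work on canine osteosarcoma that the study applied to these tumors. The question asked here is how the granule genes change along it. The score used only the 27 genes of it that remained after the study's own filter, so it is not the full signature. None of the 7 members is among these 27. Their mean z-score was entered as a continuous term with trial in a limma-voom fit over all genes. Only GZMB and GZMK passed the low-count filter. GZMB rose by 1.79 ± 0.09 log2 units per SD of the score (SE, n = 186, adjusted p = 5.68e-44), and GZMK rose by 2.25 ± 0.10 (SE, n = 186, adjusted p = 2.01e-52). Of all 13395 genes tested outside the signature, 22.6% rose. The other 5 members are read from the same fit without the filter, where 14.5% of 29987 genes rose. There, all 7 rose, with slopes of 1.67 ± 0.11 (SE) for GZMA, 1.48 ± 0.10 for PRF1, 1.90 ± 0.10 for NKG7, 1.58 ± 0.10 for CTSW and 1.22 ± 0.09 for KLRK1, and the largest adjusted p among the 7 was 5.74e-30. In edgeR's quasi-likelihood fit without the filter 15.7% of genes rose, and again all 7 members, with slopes from 1.20 for CTSW to 2.04 for GZMK. With COTC022 replicate 64 left out, these slopes ran from 1.16 to 1.89. GZMB and GZMK also rose within each trial and within each name form in the limma-voom fit.

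The other genes of granule release and effector function were fixed as a list of 22, of which 20 were in the table. Along GS-1 without the filter, 19 of these rose, against 14.5% of all genes, and 0 fell. The median slope of the 20 was 0.56, against 0.00 over all genes. The largest slopes belonged to FASLG (1.49 ± 0.08), GNLY (1.44 ± 0.09) and EOMES (1.33 ± 0.10). The genes of the general secretory machinery had smaller ones, such as LYST (0.15 ± 0.04) and VAMP8 (0.11 ± 0.03), and RUNX3 was not called (0.07 ± 0.06, adjusted p = 0.46 in limma). Of the 12 measured NK receptor genes and partners, 11 rose along GS-1 in that fit, against 14.5% of all genes, and 1 fell. Those that rose include KLRD1, which encodes CD94 (1.18 ± 0.09), HCST, which encodes the DAP10 adaptor that NKG2D signals through (0.80 ± 0.09), and NCR1, which encodes NKp46 (0.47 ± 0.07). The gene that fell was NCAM1, which encodes CD56 and is also made by cells other than NK cells (slope -0.65 ± 0.11, adjusted p = 3.82e-07 in limma).

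Whether the members followed T cells or macrophages was asked by entering both scores in 1 fit, so that each slope holds the other score fixed. The T cell slope was large for each of the 7 genes. With the filter it was 1.48 ± 0.10 log2 units per SD (SE) for GZMB and 1.83 ± 0.08 for GZMK, where 8.39% of 13406 genes rose. Without the filter it was 1.78 ± 0.10 for GZMA, 1.78 ± 0.09 for PRF1, 1.84 ± 0.08 for NKG7, 1.57 ± 0.08 for CTSW and 1.34 ± 0.09 for KLRK1 (n = 186 dogs, largest adjusted p among the 7 members 9.21e-30 in limma), where 5.15% of 29994 genes rose. edgeR without the filter called the T cell slope of all 7, from 1.36 for KLRK1 to 2.08 for NKG7, with 8.39% of genes rising.

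The macrophage slope beside it was small. With the filter it was 0.45 ± 0.13 for GZMB (adjusted p = 0.00207 in limma) and 0.56 ± 0.11 for GZMK (adjusted p = 4.85e-06 in limma), in a fit that called 41.2% of genes. Without the filter these 2 members were called again and the other 5 were not, with slopes from -0.03 ± 0.12 for PRF1 to 0.24 ± 0.10 for KLRK1, and 21.3% of genes called. KLRK1 was called in that fit without COTC022 replicate 64 (0.27 ± 0.10, adjusted p = 0.0325 in limma). In edgeR without the filter, which called 29.8% of genes, GZMK (0.49) and KLRK1 (0.54, adjusted p = 0.00259) were called positive and CTSW negative (-0.30, adjusted p = 0.0414), while GZMB was not called (0.15, adjusted p = 0.287). The sign of the macrophage slope of CTSW, GZMA and NKG7 thus differed between the tools.

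The difference of the slopes, T cell minus macrophage, was positive and called for GZMB (1.03 ± 0.20, adjusted p = 2.08e-05 in limma) and GZMK (1.27 ± 0.17, adjusted p = 3.32e-10 in limma), where 13% of genes were called positive. Without the filter it was called positive for all 7 members, from 0.95 ± 0.20 for GZMB to 1.82 ± 0.20 for PRF1, against 6.34% of all genes. edgeR without the filter gave all 7 too, with 11.8% of genes, but KLRK1 narrowly (0.82, adjusted p = 0.0396), and without COTC022 replicate 64 KLRK1 was no longer called (0.77, adjusted p = 0.064 in edgeR). Within the __ libraries edgeR without the filter called 3 of the 7 members (largest adjusted p 0.813), where 0.696% of genes were called positive. Within COTC021, COTC022 and the other libraries it called 6 of 7 each, where 6.08%, 5.14% and 11.1% of genes were called positive. In limma without the filter and without that dog, all 7 were called, from 0.93 ± 0.18 for KLRK1 to 1.93 ± 0.18 for NKG7. In that fit 5.93% of genes were called positive. Within the 50 __ libraries the difference for GZMB was 0.30 (adjusted p = 0.804 in limma), and within COTC022 0.66 (adjusted p = 0.0701 in limma). The macrophage score rests on 10 genes and the T cell score on 6.

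**Figure D3:**
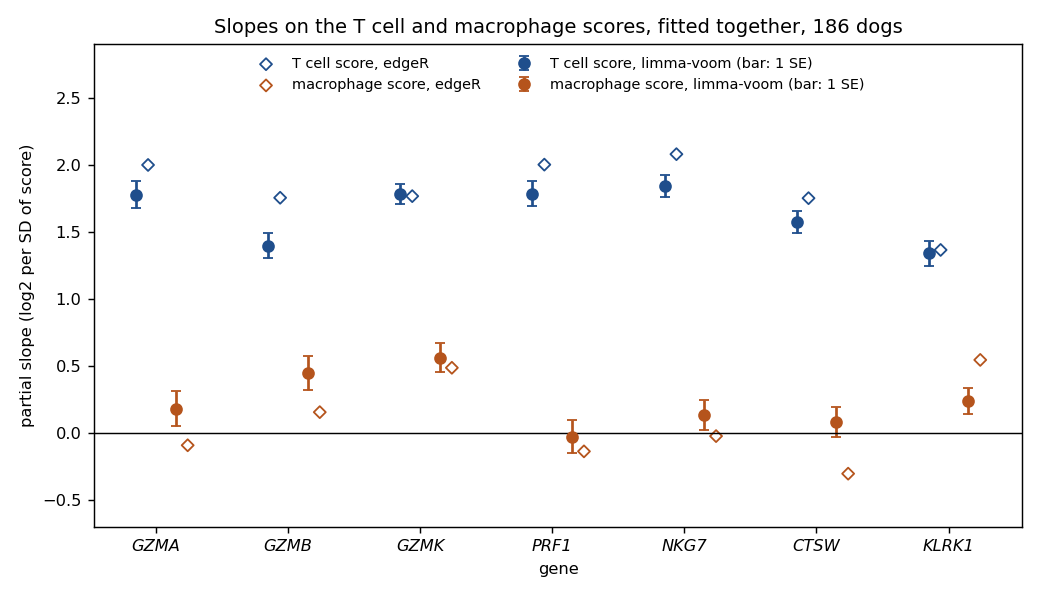
Partial slopes of the 7 genes (horizontal axis) on the T cell score and the macrophage score fitted together, in log2 units per SD of the score (vertical axis), from limma-voom without the low-count filter (filled circles, bars 1 SE) and edgeR without the filter (open diamonds), 186 dogs. The T cell slopes lie between 1.34 and 2.08 and the macrophage slopes between -0.30 and 0.56.

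Other granule genes divided between the 2 scores. Without the filter, 13 of 20 genes of the granule pathway list had a called positive T cell slope, against 5.15% of all genes. The median T cell slope of the list was 0.28, against -0.02 over all genes. For 10 of the 20 the macrophage slope was called positive, against 10.7% of all genes. RUNX3 had a called negative macrophage slope (-0.20 ± 0.07). T cell slopes were close to those of the members for GNLY (1.73 ± 0.09), FASLG (1.54 ± 0.08), EOMES (1.47 ± 0.11) and TBX21 (1.37 ± 0.08). The genes with a called negative difference were CTSC, which encodes the dipeptidyl peptidase that activates granzyme precursors (-0.72 ± 0.10), PRDM1 (-0.47 ± 0.14) and UNC13D (-0.42 ± 0.13), which encodes the granule priming factor Munc13-4. SRGN, which encodes the proteoglycan that holds granzymes in the granule, had slopes on both, 0.38 ± 0.07 on the T cell score and 0.72 ± 0.08 on the macrophage score. IFNG was called on the macrophage score (0.46 ± 0.15) and not on the T cell score (0.38 ± 0.14, adjusted p = 0.076 in limma).

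Among the coreceptors, CD8A had a T cell slope of 1.78 ± 0.09 and a macrophage slope of 0.10 ± 0.11 that was not called. The pattern of CD4 was different, with 0.62 ± 0.11 on the T cell score and 0.86 ± 0.14 on the macrophage score, both called. Without the filter CD8B had a T cell slope of 0.70 ± 0.10, and its difference of 0.39 ± 0.20 was not called (adjusted p = 0.233 in limma). The macrophage slope of CD8B was not called there. With the filter it was called positive, as was that of CD4, and the difference was called for neither. Of the NK list, 9 of 12 genes had a called positive T cell slope without the filter, against 5.15% of all genes. They include TIGIT (1.89 ± 0.09), CD96 (1.57 ± 0.09) and KLRD1 (1.52 ± 0.10). TYROBP and NCAM1 had a called negative T cell slope in limma. edgeR without the filter called only that of TYROBP. TYROBP, which encodes the DAP12 adaptor and is also made by myeloid cells, had a macrophage slope of 0.98 ± 0.06 and a T cell slope of -0.18 ± 0.05. NCR1 (highest 4.05 CPM) was at 0 in 128 of 186 dogs, and NCR3 (highest 2.15 CPM) in 92. NK cells and T cells as sources of the 7 genes cannot be told apart in these libraries.

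The T cell slope of the members did not differ detectably between the trials. A product term of the T cell score with trial was -0.40 ± 0.13 for GZMB and -0.11 ± 0.13 for GZMK, neither called (adjusted p = 0.873 and 0.929 in limma). Both were -0.11 without COTC022 replicate 64 (adjusted p = 0.974 in limma). The limma fits with and without the filter called 0% of genes, with 741 and 3707 genes at an unadjusted p under 0.05, and edgeR without the filter called 0.743% of genes and 0 of 7 members. By name form, GZMB had -0.30 ± 0.14 and GZMK 0.11 ± 0.14 in a fit that called 0.0224% of genes, and neither was called. These were 0.04 and 0.16 without COTC022 replicate 64. The exception was KLRK1, whose T cell slope was steeper by 0.65 ± 0.12 in the __ libraries in the limma fit without the filter (adjusted p = 0.000538), where 0.123% of genes were called. It was 0.64 ± 0.16 without COTC022 replicate 64 and no longer called (adjusted p = 0.0778 in limma), with 0.0934% of genes called. In edgeR, which called 0.843% of genes, it was 0.40 and not called (adjusted p = 0.662).

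GZMB and GZMK, the granzymes that passed the filter, were also set against each other within each dog. The difference of log2 CPM, GZMB minus GZMK, had a median of -0.74, ranged from -4.89 (in COTC022 replicate 64) to 1.83, and was above 0 in 43 of 186 dogs. As transcript length is not corrected for, the sign of 1 dog says nothing about the amounts of the granzymes, but the order of the dogs can be compared. The difference was higher in dogs with a higher score of cell cycle genes (MKI67, TOP2A, CCNB1, CDK1, BUB1 and AURKA). Its r with that proliferation score was 0.380 and rho 0.385 (adjusted permutation p = 6e-05 over the 12 lists). It was lower in dogs with a higher GS-1 score (r = -0.361), T cell score (r = -0.290, adjusted permutation p = 0.000264) and macrophage score (r = -0.290). With a prior count of 0.5 these were -0.282, -0.214 and -0.223. In the 107 dogs with at least 10 counts of both genes they were -0.434, -0.393 and -0.347. Within the __ libraries and the others, respectively, r was -0.603 and -0.252 for GS-1, -0.657 and -0.124 for the T cell score, and -0.461 and -0.220 for the macrophage score. With COTC022 replicate 64 left out, the values within the __ libraries were -0.484, -0.520 and -0.353. Within COTC021 r with the T cell score was -0.163 and within COTC022 -0.447 (-0.308 without COTC022 replicate 64). In all, 8 of 12 lists passed by r, of which the osteoblast and interferon-gamma response lists did not pass by rho (adjusted permutation p = 0.113 and 0.0524). With a prior count of 0.5 the interferon-gamma response list did not pass by r either (adjusted permutation p = 0.239).

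The relation with proliferation was positive in each subset of dogs. Its r was 0.396 within COTC021 and 0.371 within COTC022 (0.301 without COTC022 replicate 64). It was 0.429 within the __ libraries (0.284 without that dog) and 0.360 within the others. Without the 2 dogs with the most extreme proliferation score it was 0.404, and without COTC022 replicate 64 it was 0.35. A prior count of 0.5 gave 0.344. Low counts of both genes draw the difference towards 0, and in the 107 dogs with at least 10 counts of both genes r was 0.453 (rho 0.419, adjusted permutation p = 4e-05). Taken singly, GZMK had r = -0.252 with the proliferation score (adjusted permutation p = 0.000793) and GZMB r = -0.068 (adjusted permutation p = 0.421). The proliferation score reads the cell cycle of all cells in the tumor, and which cells it comes from was not tested.

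**Figure D4:**
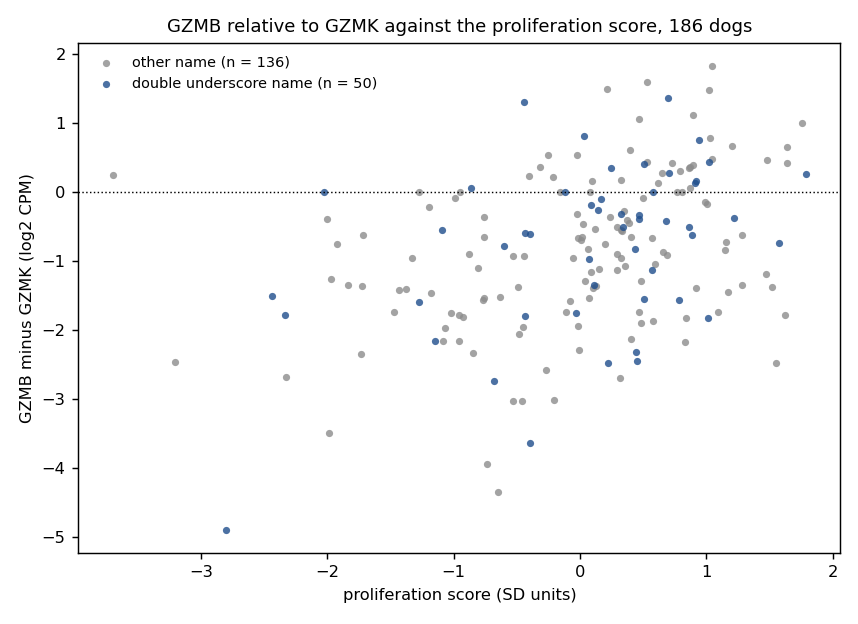
Difference of log2 CPM between GZMB and GZMK in each dog (vertical axis) against the proliferation score in SD units (horizontal axis), for __ libraries (blue, n = 50) and the others (grey, n = 136). The difference is higher towards the right in both sets (r = 0.43 and 0.36), and the lowest point, -4.89, is COTC022 replicate 64.

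Levels in the trials overlapped throughout. As the study took the trials as batches, enrolment and batch cannot be told apart in this comparison. GZMB ranged from 0 to 83.6 CPM with a median of 1.27 CPM in the 93 dogs of COTC021, and from 0 to 76.4 CPM with a median of 1.14 CPM in the 93 dogs of COTC022. GZMK ranged from 0 to 318.1 CPM in COTC021 (median 2.14 CPM) and from 0 to 2271 CPM in COTC022 (median 2.06 CPM). The largest difference of medians in relative terms was that of KLRK1, 0.143 against 0.051 CPM, both of which lie below the value that 3 counts have at the median depth. In the limma-voom fit the difference, COTC022 minus COTC021, was -0.46 ± 0.33 log2 units for GZMB (SE, adjusted p = 0.7) and -0.40 ± 0.37 for GZMK (SE, adjusted p = 0.771), and neither passed, in a fit that called 2 of 13422 genes (0.0149%). Without the filter all 7 estimates were negative, from -0.77 ± 0.36 for NKG7 to -0.12 ± 0.31 for CTSW, 0 of 7 members passed (smallest adjusted p 0.523) and 0.00666% of genes were called.

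The edgeR estimates of the trial difference turned on 1 dog. With all dogs, edgeR without the filter called 4.66% of genes and 0 of 7 members, and GZMK was higher in COTC022 by 0.89 (adjusted p = 0.286). Without COTC022 replicate 64, it called 4.98% of genes, 2.26% as lower in COTC022, and 4 of 7 members as lower. These were PRF1 (-1.65, adjusted p = 0.00131), GZMK (-1.64, adjusted p = 0.000759), NKG7 (-1.42, adjusted p = 0.00786) and GZMB (-1.28, adjusted p = 0.0107). limma-voom without the filter and without that dog called 0 of the 7, with estimates from -0.86 ± 0.35 for NKG7 to -0.20 ± 0.30 for CTSW. The tools thus differed, and the sign for GZMK in edgeR changed when a single tumor was left out.

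**Figure D5:**
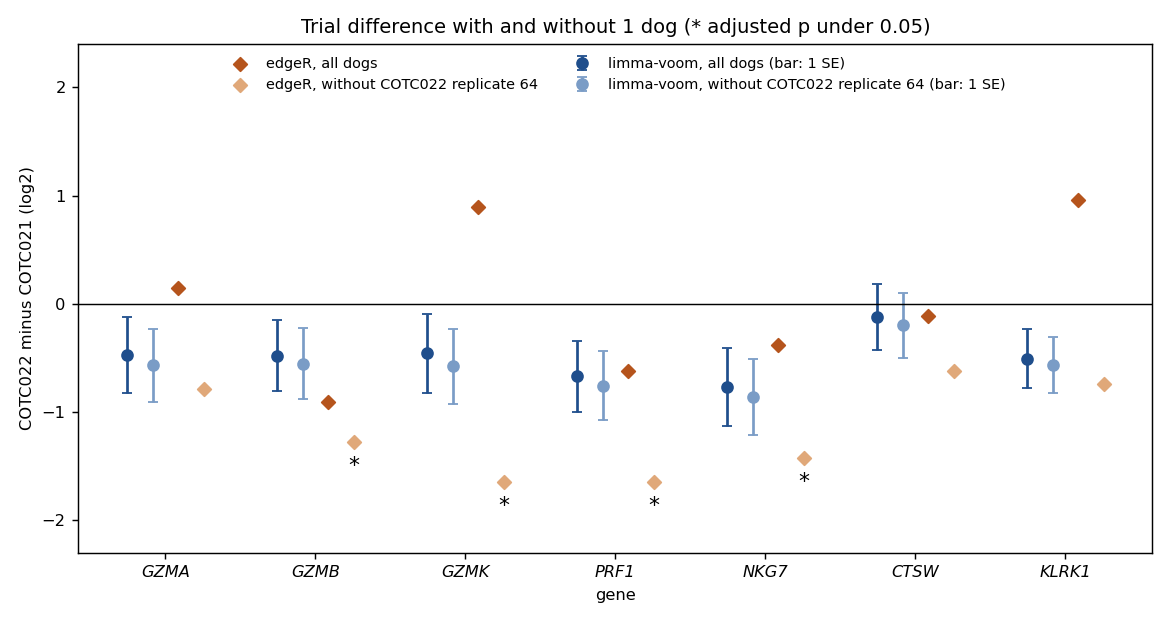
Difference in log2 units between the trials, COTC022 minus COTC021 (vertical axis), for the 7 genes (horizontal axis) in fits without the low-count filter, by limma-voom (circles, bars 1 SE) and edgeR (diamonds), with all 186 dogs (dark) and without COTC022 replicate 64 (light). Asterisks mark adjusted p under 0.05, and the 4 marked values, from -1.65 to -1.28, belong to edgeR without that dog.

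The comparison of the name forms changed with the same dog in edgeR and not in limma. In the limma-voom fit, __ minus other libraries was -0.66 ± 0.37 for GZMB (SE, adjusted p = 0.332) and -0.74 ± 0.40 for GZMK (SE, adjusted p = 0.311), while 4.27% of genes were called. Without the filter 44.2% of genes were called, with a median shift of -0.16 over all genes tested, and 0 of 7 members, with estimates from -0.65 to 0.16 (from -0.82 to 0.05 and 0 of 7 without COTC022 replicate 64). edgeR without the filter called 6 of 7 members as higher in the __ libraries, all but GZMB, with 7.11% of genes called in all and 4.4% called higher. GZMK was higher by 3.29 (adjusted p = 0.000103) in that fit. Without COTC022 replicate 64, edgeR called 0 of 7 members and 6.61% of genes, and GZMK differed by 0.14.

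Within the name forms the medians of the trials stood in opposite order. Limma called the trial difference of GZMB and GZMK within neither form, while the product of trial and name form was called for the members in edgeR only. In limma with the filter, GZMB and GZMK differed by 0.97 to 1.31 within the __ libraries (largest adjusted p 0.765). Within the others they differed by -1.13 to -1.03 (largest adjusted p 0.207). These fits called 0% and 0.0596% of genes. Among the other libraries, medians were higher in COTC021, with 3.40 CPM of GZMK in 75 dogs against 2.06 CPM in the 61 of COTC022. They were 1.24 against 0.871 CPM for NKG7 and 0.782 against 0.688 CPM for CTSW. Among the __ libraries the order was turned, with 0.688 CPM of GZMK in 18 dogs of COTC021 and 1.93 CPM in 32 of COTC022. For NKG7 the medians lay close, 0.426 against 0.489 CPM, and for CTSW they were 0.480 against 1.14 CPM. The ranges overlapped in each of these pairs. CD3E followed the same order, with medians of 4.23 and 2.67 CPM in the other libraries and 1.73 and 3.04 CPM in the __ libraries. A product term of trial and name form was positive for all 7 members in edgeR without the filter, from 3.92 for GZMB to 6.98 for GZMK (largest adjusted p 0.00135), where 4.3% of genes were called. Without COTC022 replicate 64 all 7 were still called, from 2.96 for KLRK1 to 4.41 for GZMA (largest adjusted p 0.0305), with 2.99% of genes called. COTC022 replicate 84, also a __ library, stayed in that fit. It was second of all dogs for GZMA (87.1 CPM) and CTSW (51.7 CPM), and its part in these product terms was not tested. All 10 T cell markers were called with the same sign in edgeR with all dogs, with a median product term of 4.20. limma-voom gave smaller product terms of the same sign, 1.99 ± 0.79 for GZMB and 2.44 ± 0.91 for GZMK with the filter, and called 0% of genes with or without the filter (1466 and 2523 genes at an unadjusted p under 0.05). What distinguishes the name forms is not given in the sources used here, and their part in this was not tested.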

How the data were processed

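Primary tumors of 186 dogs were profiled by the authors with TruSeq stranded mRNA libraries. They trimmed reads with cutadapt, aligned them with STAR 2.7.0f to the CanFam4 genome (UU_Cfam_GSD_1.0) and quantified genes with RSEM 1.3.1. The deposited values are RSEM expected counts, not normalized, in 198 columns, of which 186 matched a sample title and 12 were not used. Expected counts (3.07% not whole) were rounded.

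Genes were filtered by the filterByExpr function of edgeR 4.0.16, with a minimum count of 10, a minimum proportion of 0.5 and large.n set to 5, TMM-normalized and fitted with voom in limma 3.58.1 (R 4.3.3), with Benjamini-Hochberg adjustment over all genes tested and a threshold of 0.05. As 5 of the 7 members did not pass the filter, fits without it were used for them. Values ± are SEs from limma for slopes and differences. Alternatives used edgeR's quasi-likelihood test and DESeq2 1.42.0. CPM are counts over library totals, and log2 CPM used a prior count of 2. Permutation tests were two-sided, with 100000 resamples in Python 3.11.15 (numpy 2.4.6, scipy 1.17.1, pandas 2.3.3; figures matplotlib 3.10.9). Fits and permutation tests were tested on simulated data.

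The members and gene lists were chosen with earlier results of these data known. Named genes are the 7 members, the 5 genes with the highest r with each, the granule and NK lists, CD3E, CD8A, CD8B and CD4, and, chosen after their values were seen, B lymphocyte markers in COTC022 replicate 64. Dogs are separate animals. Clusters and survival were not analysed here.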

Additional observations from a re-analysis of the deposited data

Results flagged for a closer look

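The product of trial and name form was positive and called for all 7 members in edgeR without the low-count filter, 5.66 for GZMA, 3.92 for GZMB, 6.98 for GZMK, 5.73 for PRF1, 5.20 for NKG7, 4.32 for CTSW and 5.32 for KLRK1 (log2 units), and was not called for any of them in limma-voom.

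In limma-voom without the filter, the T cell slope of KLRK1 was steeper in the __ libraries, with a product term of 0.65 that was no longer called without COTC022 replicate 64 (0.64, adjusted p = 0.0778 in limma), and KLRK1 was at 0 in 71 of 186 dogs.

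The correlation of GZMB minus GZMK with the T cell score differed between the name forms, with r of -0.657 in the 50 __ libraries and -0.124 in the other 136. The difference of -0.53 had p = 0.0063 when the name labels were permuted over dogs (10000 resamples, two-sided), and without COTC022 replicate 64 it was -0.396 (permutation p = 0.0323). This test was chosen after the values had been seen.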

How the results depend on the processing

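Among single-member values recomputed under an alternative, 325 kept their direction and their side of the threshold, 52 changed direction, 23 passed where the reported value had not, and 24 no longer passed. No slope on GS-1 or on the T cell score changed direction. Of the 24, 11 were macrophage slopes of GZMB and GZMK and 10 were differences of the slopes. The cause of these changes was not tested. Counts of 0 to a few reads limit KLRK1 and PRF1 most. No paired analysis was possible because the replicate numbers follow the order of the samples and pair no dogs. DESeq2 gave no p-value for GZMK in the trial and name comparisons, so no value is given.

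At a minimum of 3 counts instead of 10, dogs with GZMA went from 63 to 133, with PRF1 from 53 to 114, with NKG7 from 90 to 146, with CTSW from 89 to 152 and with KLRK1 from 20 to 61.

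Called genes by trial numbered 2, against 129 in edgeR and 71 in DESeq2 with the filter, 1399 in edgeR without it and 1493 there without COTC022 replicate 64, 0 within __ names and 8 within the others. By name form they numbered 573, against 2135 in edgeR without the filter (1984 without that dog), 13267 in limma without the filter (13392 without that dog), 146 within COTC021 and 89 within COTC022. Along GS-1 they numbered 6616, against 10846 in edgeR without the filter (10321 without that dog), 3679 within COTC021 and 3235 within __ names. For the T cell slope they numbered 2077, against 3886 in edgeR without the filter (3385 without that dog, 1083 within __ names), and in limma 857 within COTC021, 1050 within COTC022, 581 within __ names and 1270 within the others. For the macrophage slope they numbered 5524, against 8924 in edgeR without the filter (8888 without that dog, 1249 within __ names), and in limma 3576, 2812 and 758 within COTC021, COTC022 and __ names. For the difference of the slopes they numbered 3401, against 5870 in edgeR without the filter (5710 without that dog, 618 within __ names, 5274 within the others), and in limma 2107, 1218 and 270 within COTC021, COTC022 and __ names. For the T cell product term with trial they numbered 0, against 223 in edgeR without the filter (226 without that dog) and 2 in limma without the filter and that dog. For that with name form they numbered 3, against 0 without that dog, 37 without the filter (28 without that dog) and 253 in edgeR without the filter (186 without that dog). For the product of trial and name form they numbered 0, against 1291 in edgeR without the filter (898 without that dog).

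Changed directions were as follows. The trial difference in edgeR without the filter was 0.15 for GZMA, 0.89 for GZMK (0.85 with the filter) and 0.96 for KLRK1, and in limma within __ names 0.97 for GZMB and 1.31 for GZMK. The name difference in edgeR without the filter was 0.61 for GZMB (0.57 with the filter, 0.58 in DESeq2), 3.29 for GZMK (3.24 with the filter), 2.08 for GZMA, 1.70 for PRF1, 1.74 for NKG7 and 2.42 for KLRK1. Without COTC022 replicate 64 these 6 were 0.01, 0.14, 0.91, 0.31, 0.34 and 0.35. Within COTC022 it was 0.26 for GZMB and 0.40 for GZMK in limma. The macrophage slope in edgeR without the filter was -0.09 for GZMA (-0.09 without that dog, -0.44 within COTC021, -0.22 within the other names), -0.02 for NKG7 (-0.03, -0.27 and -0.09, likewise) and -0.30 for CTSW (-0.32 without that dog, -0.08 within COTC021, -0.37 within COTC022, -0.57 within __ names, -0.08 within the others). It was -0.04 for GZMB within COTC021 and 0.12 for PRF1 within COTC022. The T cell product term with name form was 0.04 for GZMB in limma without that dog, and 0.10 for NKG7 in edgeR without the filter (0.27 without that dog). With trial it was 0.01 for GZMK in edgeR without the filter (0.03 without that dog) and 0.09 for NKG7 without that dog. In limma without the filter and without that dog, the term with name form was 0.25 for GZMA, 0.03 for GZMB, 0.02 for PRF1, 0.20 for NKG7 and 0.00 for CTSW, and the term with trial 0.09 for GZMA and 0.04 for CTSW.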
